A study of Mus musculus with 4 samples.

Results

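The genes described here are the 4 Id genes (Id1, Id2, Id3 and Id4), 3 ligands of the BMP family (Bmp2, Bmp4 and Gdf10), 2 secreted BMP antagonists (Chrdl1 and Grem1) and the inhibitory SMAD Smad6, 10 of the 32287 genes listed in 3 of the 4 libraries. They were chosen by measured values of these data: Id3 was lower in TNF-Tg than in WT in one stromal class and higher in the other, and its paralogs and BMP ligands and antagonists were added to it. The TNF-Tg over WT values in stromal cells are therefore a description, with no test. Bone morphogenetic proteins are secreted ligands that bind paired type I and type II receptors and lead to phosphorylation of SMAD1, SMAD5 and SMAD9, which enter the nucleus with SMAD4. Id genes are among the best known targets of these SMADs. Id proteins have a helix-loop-helix but no DNA-binding domain, so they pair with bHLH factors and keep them from DNA. Antagonists of the Chordin and Gremlin families bind the ligands outside the cell, and SMAD6 is a feedback inhibitor inside it.

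Single-cell RNA-seq had been performed on popliteal lymphatic vessels (PLVs) and the adjacent superficial saphenous vein of mice on a C57BL/6J background. The 4 libraries each held vessels pooled from 3 mice. Libraries tdT1 and tdT2 came from male and female Cspg4-Cre;Ai9-tdTomato mice older than 8 months, sorted for the tdTomato reporter, which Cspg4 drives in mural cells among others. For WT and TNF-Tg, males of 9 months by the labels were used and cells were sorted by scatter alone. TNF-Tg mice carry a human TNF transgene and develop inflammatory-erosive arthritis. Each condition was thus 1 pool and 1 library, and condition and library cannot be told apart. The files held 1504 cells in tdT1, 454 in tdT2, 5488 in WT plus 3391 in TNF-Tg, with 14256192, 2357031, 68773605 and 37557627 UMIs. Between 0 and 5 barcodes were shared by any pair of libraries.

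Cells were gated into classes by marker genes, none of which is among the 10 genes. The 2 stromal classes bear the study's names: LMC-type cells are high in Myoc, Pi16 and Fndc1, and VSMC-type cells in Cxcl14, Mgp and Igfbp7. LMC-type cells numbered 658 in tdT1, 95 in tdT2, 1385 in WT plus 528 in TNF-Tg, and VSMC-type cells 135, 86, 514 and 379. Stromal cells that neither marker list set apart are called stromal between (147, 60, 277 and 195 cells). Of muscle genes, Acta2 was at 0 to 4.89 CPM and Myh11 at 0 to 0.858 CPM in the LMC-type and VSMC-type sums and the contractile list at 35.0 to 72.5 CPM in all, whereas Cald1 was at 168 to 303 CPM, Tpm1 at 49.9 to 91.3 CPM and the mural gene Pdgfrb at 43.8 to 159 CPM. Acta2 and Myh11, which define contractile smooth muscle, were thus at or near 0, while the summed list of fibroblast genes such as Dcn and Col1a1 was at 23850 to 50739 CPM. Leukocyte markers summed to 0 to 35.0 CPM and endothelial markers to 0.977 to 47.9 CPM in the same sums. The gate itself asked for the fibroblast list at 80 or more and leukocyte markers under 10 per 10000 UMIs. High fibroblast and low leukocyte sums were thus set by the gate. Cells with contractile markers at 20 or more but the fibroblast list under 80 formed a separate class, with 12 cells in tdT1 and 2 in tdT2. A level below is the CPM of UMIs summed over the cells of 1 class in 1 library, with an exact Poisson 95% interval that covers counting error only.

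The upstream windows of 3 of the genes are shown for the results that follow. Bmp4 and Gdf10 were both lower in TNF-Tg in LMC-type and VSMC-type cells, and Id4 was the Id gene that differed most between these classes. RefSeq windows (GRCm38.p6) were matched for 7 of the 10 genes, namely Id2, Id3, Id4, Bmp4, Gdf10, Grem1 and Smad6. The windows below hold the 250 bases before the gene's RefSeq start. Capitals mark matches on either strand to GGCGCC or GGAGCC, GC-rich elements bound by BMP-activated SMADs. They also mark the E-box CANNTG, the element of bHLH factors. Id2 and Id3 are not printed because their windows lie inside the genes as annotated. For Id4 the gene as annotated starts at 48261228, beyond the end of its window at 48261115.

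Bmp4, chr14:46390670-46390919, minus strand: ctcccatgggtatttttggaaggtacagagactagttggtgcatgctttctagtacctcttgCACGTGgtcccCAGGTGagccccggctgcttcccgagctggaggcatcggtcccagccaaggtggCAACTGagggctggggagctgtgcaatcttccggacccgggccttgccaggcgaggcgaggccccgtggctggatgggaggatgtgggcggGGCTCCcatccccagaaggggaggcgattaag
Gdf10, chr14:33923337-33923586, plus strand: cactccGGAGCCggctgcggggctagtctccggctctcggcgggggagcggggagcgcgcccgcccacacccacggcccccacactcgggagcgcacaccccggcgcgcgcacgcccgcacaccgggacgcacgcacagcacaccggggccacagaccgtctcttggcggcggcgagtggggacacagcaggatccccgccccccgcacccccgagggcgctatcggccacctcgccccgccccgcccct
Id4, chr13:48260866-48261115, plus strand: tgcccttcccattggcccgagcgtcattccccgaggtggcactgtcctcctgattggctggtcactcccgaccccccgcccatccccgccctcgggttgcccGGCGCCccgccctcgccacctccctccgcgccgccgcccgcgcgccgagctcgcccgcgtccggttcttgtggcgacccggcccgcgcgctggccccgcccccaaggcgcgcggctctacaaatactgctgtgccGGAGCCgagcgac

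The Bmp4 window held 3 E-boxes, starting 188, 177 and 123 bases before the start, and 1 GGAGCC. Gdf10 held 1 GGAGCC, and Id4 held 1 GGCGCC and 1 GGAGCC. These matches do not overlap one another. Over the 5 windows that lie outside their gene, GGAGCC was found in 4, GGCGCC in 2, CANNTG in 1 and the NF-kB consensus in 0. Of all 32851 windows of this length, 26.0% held GGAGCC, 9.59% GGCGCC, 66.2% CANNTG and 3.90% the NF-kB consensus. All 7 matched windows are rich in G and C (62.8% to 78.8%), which moves with matches to such motifs. A match is a run of letters and says nothing of binding in these cells.

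The levels by library show first how far libraries without the transgene lay apart. Among tdT1, tdT2 and WT, the highest level of Id3 was 3.11 times the lowest in LMC-type cells and 2.38 times in VSMC-type cells. The same spread was 5.74 and 6.57 times for Id1, 5.07 times for Bmp2 in LMC-type cells, and 1.72 times for Gdf10 in VSMC-type cells. Library tdT1, sorted through a narrower nozzle than the others and sequenced on a NextSeq in place of a NovaSeq instrument, was highest for all 4 Id genes and Smad6 in both classes. Summed immediate-early genes such as Fos and Jun were also highest there, at 17391 CPM in LMC-type and 23218 CPM in VSMC-type cells against 3008 to 4973 and 3176 to 6009 CPM in the other 3 libraries. The immediate-early genes were picked after the libraries had been compared. Cell quality differed as well, with 567 of 1504 cells in tdT1 over 10% mitochondrial UMIs or under 500 genes. The other libraries had 31 of 454 such cells in tdT2, 393 of 5488 in WT and 144 of 3391 in TNF-Tg. Among LMC-type cells they were 161 of 658 in tdT1 and 14 of 1385 in WT. The part of immediate-early genes and of cell quality in the Id levels was not tested.

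**Figure D1:**
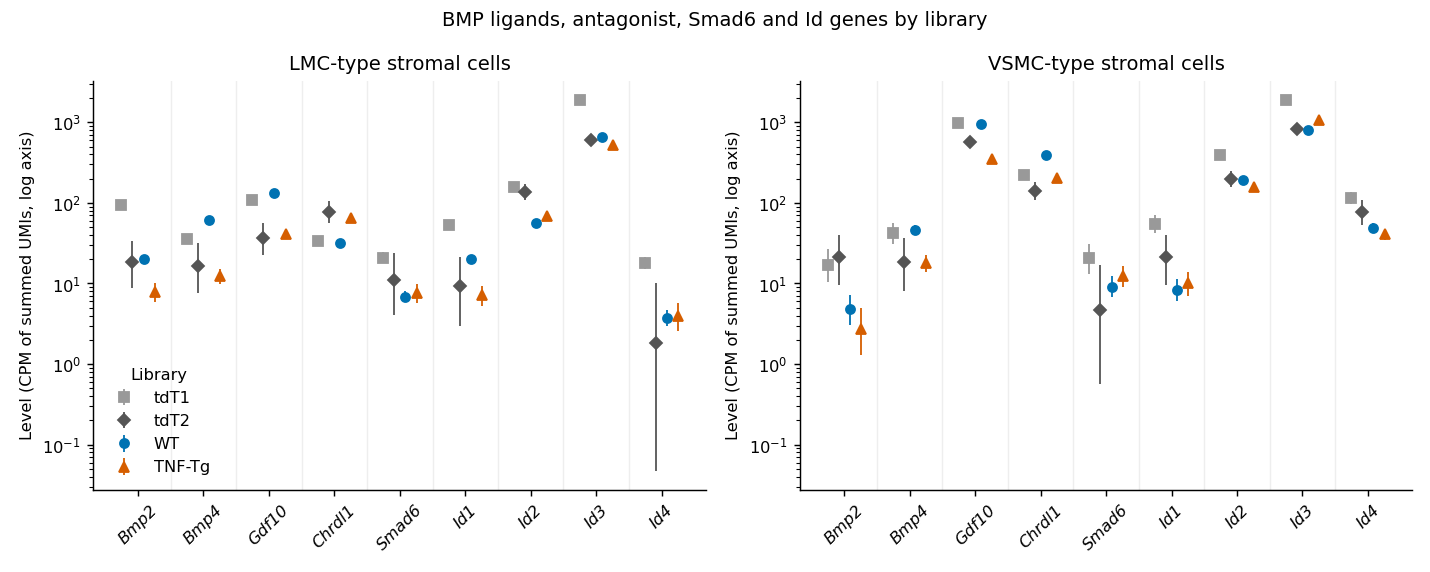
Level of 9 of the genes in CPM of summed UMIs (log axis) in LMC-type (left) and VSMC-type (right) stromal cells, with 1 point per library and exact Poisson 95% intervals. Id3 is the most abundant Id gene in both classes, and tdT1 (light squares) lies above the other libraries for the Id genes.

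Of the 3 ligands, Bmp4 had the largest difference between WT and TNF-Tg in LMC-type cells, and Gdf10 had a slightly larger one than Bmp4 in VSMC-type cells. The level of Bmp4 in LMC-type cells was 35.4 CPM in tdT1, 16.6 in tdT2, 60.8 in WT against 12.4 in TNF-Tg. TNF-Tg was the lowest library, though the interval of tdT2, which rests on 9 UMIs, reached from 7.59 to 31.5 CPM and covered it. The log2 ratio of TNF-Tg over WT was -2.29 (95% interval -2.62 to -1.98, counting error only). In VSMC-type cells Bmp4 was at 42.03, 18.7, 46.6 and 17.9 CPM in the same order of libraries, with a log2 ratio of -1.38 (-1.79 to -0.98). Here TNF-Tg and tdT2 were close to each other, and WT and tdT1 stood above both. With cells of at least 3000 UMIs thinned to that number, Bmp4 was seen in 14.0% of WT and 3.45% of TNF-Tg LMC-type cells. In VSMC-type cells the shares were 11.9% and 6.98%, and the log2 ratio after thinning was -0.75. Cells under 3000 UMIs were left out of thinning. They were 27 of 1385 WT and 6 of 528 TNF-Tg LMC-type cells, and 93 of 514 and 64 of 379 VSMC-type cells. In the leukocyte classes of at least 50 cells, Bmp4 was at 0 to 15.4 CPM, with T cells of TNF-Tg highest on 9 UMIs.

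Gdf10, also called BMP3B and a divergent member of the family, was the most abundant ligand. In VSMC-type cells it was at 987 CPM in tdT1, 575 in tdT2, 946 in WT against 349 in TNF-Tg. The TNF-Tg library lay below all 3 others and their intervals, with a log2 ratio to WT of -1.44 (-1.53 to -1.35). In LMC-type cells Gdf10 was at 110, 36.9, 131 and 40.9 CPM, with a log2 ratio of -1.68 (-1.86 to -1.51). There TNF-Tg fell within the range of the other libraries, since tdT2 was as low. The share of thinned VSMC-type cells with a Gdf10 UMI was 85.5% in WT and 57.1% in TNF-Tg. In the stromal between cells, the level was 427 CPM in WT and 159 in TNF-Tg.

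In LMC-type cells, Bmp2 was at 93.5 CPM in tdT1, 18.4 in tdT2, 20.4 in WT against 7.81 in TNF-Tg. TNF-Tg was again lowest, with a log2 ratio of -1.38 (-1.81 to -0.98), and its interval (5.90 to 10.1 CPM) overlapped that of tdT2. In VSMC-type cells it was at 17.2, 21.1, 4.78 and 2.72 CPM, and 24 UMIs in WT and 10 in TNF-Tg were too few for a ratio under the minimum of 50 UMIs. Resident macrophages held it at a level near that of LMC-type cells in WT, 15.1 CPM, and above it in TNF-Tg, 29.5 CPM. These 3 ligands were each lower in TNF-Tg by 2-fold or more in LMC-type cells, where 4.43% of 11095 genes were. Not all ligands of the wider pathway list were lower there. Of the 7 with at least 50 UMIs, these 3 included, 5 were lower by 2-fold or more. The log2 ratios of the 7 ran from -2.29 to 0.48.

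Among the antagonists, Chrdl1 (Chordin-like 1, a secreted protein that binds BMP4) moved in opposite directions in the stromal classes. In LMC-type cells it was at 33.6 CPM in tdT1, 77.4 in tdT2, 31.9 in WT against 64.6 in TNF-Tg. TNF-Tg was 2.03 times WT (log2 ratio 1.02, 0.85 to 1.19) but lay between tdT1 and tdT2. In VSMC-type cells it was at 225, 140, 394 and 206 CPM, where TNF-Tg was lower than WT (log2 ratio -0.93, -1.05 to -0.81) and again between tdT1 and tdT2. Levels of Chrdl1 in VSMC-type cells were thus 12.4 times those of LMC-type cells in WT, 6.69 in tdT1, 3.20 in TNF-Tg and 1.81 in tdT2. Of 8894 genes with enough UMIs in both classes, 3 (0.0337%) were higher in LMC-type and lower in VSMC-type cells by at least these amounts, Chrdl1 included. The limit was the values of Chrdl1 itself, so the share describes their size and is no test. Grem1 (Gremlin 1) was not measurable. It had 7 UMIs in WT and 2 in TNF-Tg VSMC-type cells, 1 UMI in WT LMC-type cells and 0 in the other stromal sums of these classes, where 3 UMIs in the WT LMC-type sum would amount to 0.134 CPM.

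Smad6, the feedback inhibitor, was low throughout. In LMC-type cells it was at 20.9 CPM in tdT1, 11.1 in tdT2, 6.87 in WT against 7.53 in TNF-Tg, and the log2 ratio of TNF-Tg over WT was 0.13 (-0.34 to 0.59). In VSMC-type cells, the levels were 20.6, 4.68, 9.16 and 12.2 CPM and the log2 ratio was 0.42 (-0.21 to 1.04). No difference between WT and TNF-Tg was detectable at this depth in either class.

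Id3 was the leading Id gene of the stroma and the one that the choice of genes was built on. In LMC-type cells it was at 1871 CPM (1842 to 1901) in tdT1, 601 (538 to 670) in tdT2, 655 (644 to 666) in WT against 523 (507 to 540) in TNF-Tg. TNF-Tg was lowest, though the upper end of its interval overlapped the lower end of that of tdT2. The log2 ratio of TNF-Tg to WT was -0.32 (-0.38 to -0.27). In VSMC-type cells, Id3 was at 1911 CPM (1832 to 1992) in tdT1, 835 (751 to 926) in tdT2, 803 (778 to 828) in WT against 1058 (1025 to 1092) in TNF-Tg. TNF-Tg was above WT and tdT2 and below tdT1, with a log2 ratio to WT of 0.40 (0.33 to 0.46). In the stromal between cells the levels were 638 CPM in WT and 607 in TNF-Tg, with an interval of the ratio that included 0. With thinned cells, Id3 was seen in 68.3% of WT and 62.1% of TNF-Tg LMC-type cells, and in 71.5% and 77.5% of VSMC-type cells. Opposite directions of any size in the 2 classes were seen in 21.0% of 8894 genes, and 28 genes (0.315%) were lower in LMC-type and higher in VSMC-type cells by at least the amounts of Id3. The limit of the latter share was the values by which Id3 was chosen, so it is a description and no test. Both amounts of Id3 are smaller than the spread among the libraries without the transgene, 3.11-fold in LMC-type and 2.38-fold in VSMC-type cells. In both classes tdT1 was the highest of these libraries. Levels in tdT2 and WT were closer, at 601 and 655 CPM in LMC-type and 835 and 803 CPM in VSMC-type cells.

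Within a library both classes share the mice, the sort and the sequencing run, so the ratio of VSMC-type to LMC-type cells leaves out whatever acts on both alike. For Id3 this ratio was 1.02 (0.98 to 1.07) in tdT1, 1.39 (1.19 to 1.62) in tdT2, 1.23 (1.18 to 1.27) in WT and 2.02 (1.93 to 2.11) in TNF-Tg. TNF-Tg was the highest of the 4. The higher ratio in TNF-Tg than in WT is the opposite movement by which Id3 was chosen, written in another way, so it is a description. Its intervals cover counting error only, and with 1 TNF-Tg library there is no replicate check. The gate markers were themselves lower in the TNF-Tg library, with the summed LMC list at 14614 CPM in WT and 10179 in TNF-Tg LMC-type cells and the summed VSMC list at 17462 and 11709 CPM in VSMC-type cells. Their part in the ratios was not tested. Of gated WT and TNF-Tg cells, 93.4% to 99.5% fell into Seurat clusters of the same name that were built without the pathway genes, and the directions of Id3 were the same there.

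**Figure D2:**
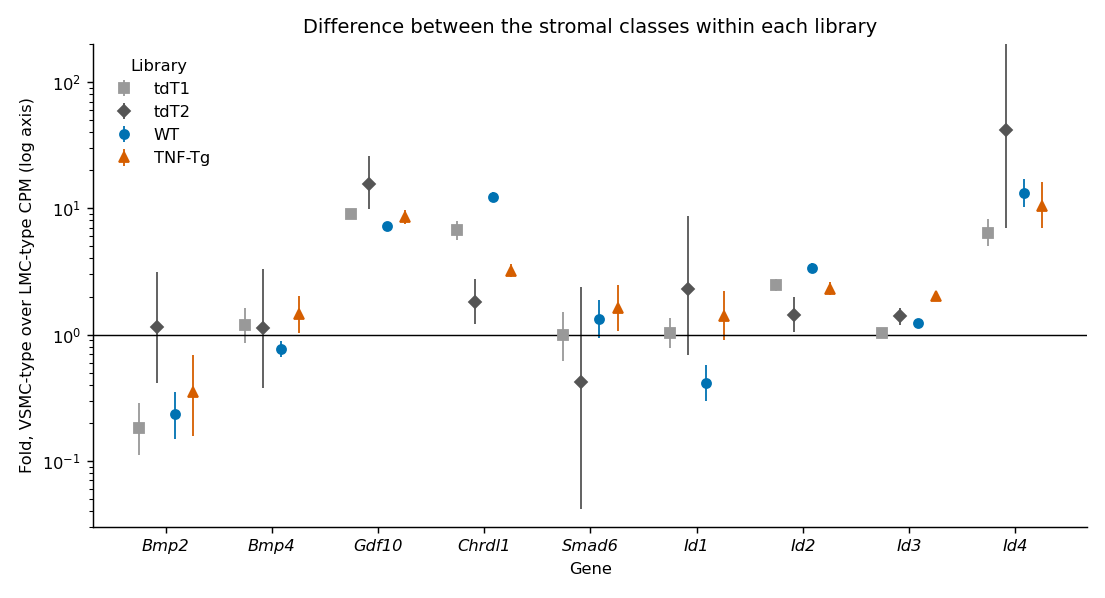
Fold of VSMC-type over LMC-type CPM (log axis) for 9 of the genes within each library, with exact 95% intervals. Gdf10, Id2 and Id4 lie above 1 in all 4 libraries, the Id3 ratio is 2.02 in TNF-Tg against 1.02 to 1.39 in the others, and the interval of Id4 in tdT2 runs past the top of the axis.

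Of the paralogs of Id3, Id1 had the same signs at the main settings, but its VSMC-type value was too uncertain to place and its sign changed with the processing. Id1 in LMC-type cells was at 53.0 CPM in tdT1, 9.22 in tdT2, 20.2 in WT against 7.12 in TNF-Tg, a log2 ratio of -1.50 (-1.95 to -1.08) for TNF-Tg over WT. TNF-Tg was lowest, but the 5 UMIs of tdT2 leave that library anywhere from 2.99 to 21.5 CPM. In VSMC-type cells, Id1 was at 54.9, 21.1, 8.36 and 10.0 CPM, and the log2 ratio of 0.27 had an interval (-0.41 to 0.94) that included both 0 and the value of Id3. That VSMC-type ratio was -0.60 in Seurat clusters, -0.06 as a mean over cells and -0.07 with thinned cells. The other alternatives gave 0.03 to 0.47.

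Id2, the Id protein best known from lymphoid and dendritic cells, went the other way from Id3 by a small amount. It was at 158 CPM in tdT1, 138 in tdT2, 56.8 in WT against 68.8 in TNF-Tg LMC-type cells (log2 ratio 0.28, 0.12 to 0.43), and at 389, 199, 191 and 159 CPM in VSMC-type cells (log2 ratio -0.27, -0.42 to -0.12). The VSMC-type value is close to the median over all 9000 genes tested in that class, -0.21, and with TMM factors it became -0.08. Id4 was at 18.1, 1.84, 3.75 and 3.91 CPM in LMC-type and 116, 77.2, 49.2 and 40.7 CPM in VSMC-type cells. Both intervals of its ratio, -0.61 to 0.69 and -0.57 to 0.03, included 0.

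Counted together, 9 of the 10 genes had at least 50 UMIs over WT and TNF-Tg in LMC-type cells. Of these, 4 (Id1, Bmp2, Bmp4 and Gdf10) were lower by 2-fold or more, where 4.43% of 11095 genes were, and 1 (Chrdl1) was higher, where 3.45% were. Chrdl1 lay just past that limit and fell under it in Seurat clusters (0.93), as a mean over cells (0.92) and with a stricter marker margin (0.83). In VSMC-type cells 8 had enough UMIs, 2 (Bmp4 and Gdf10) were lower by 2-fold or more, where 12.0% of 9000 genes were, and 0 were higher, where 3.36% were. With cells thinned to 3000 UMIs, Bmp4 in VSMC-type cells was at -0.75, short of that limit. In the stromal between cells 8 had enough UMIs, 3 (Id1, Bmp4 and Gdf10) were lower, where 8.31% of 8503 genes were, and 0 were higher, where 3.74% were. Bmp4 and Gdf10 were lower by 2-fold or more in both LMC-type and VSMC-type cells, as were 192 of 8894 genes (2.16%). The median log2 ratio over the genes was -0.32 in LMC-type and -0.27 in VSMC-type cells, beside -0.02 and -0.21 over all genes tested. Since the same contrast was used to choose the genes, these counts are given without a reading. TNF-Tg lay below all 3 other libraries for 4 of 9 genes in LMC-type cells (Id1, Id3, Bmp2 and Bmp4), as it did for 29.2% of all genes, and for 4 of 8 in VSMC-type cells (Id2, Id4, Bmp4 and Gdf10), as it did for 40.4%. It was above all 3 for 0 genes in either class, against 27.2% and 23.7% of all genes.

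**Figure D3:**
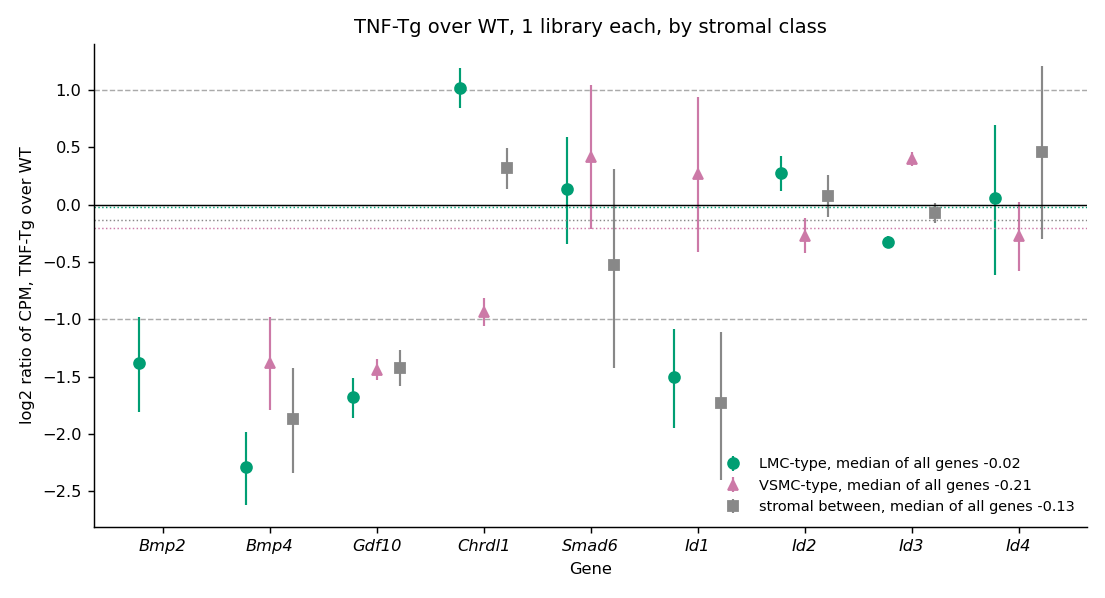
Log2 ratio of CPM in the TNF-Tg over the WT library by gene in 3 stromal classes, for genes with at least 50 UMIs over both libraries, with exact 95% intervals that cover counting error only. Dashed lines mark 2-fold and dotted lines the median of all genes of a class, and Bmp4 and Gdf10 lie below -1 in all 3 classes while Chrdl1 and Id3 have opposite signs in LMC-type and VSMC-type cells.

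The difference between LMC-type and VSMC-type cells was measured in all 4 libraries and could be tested. The classes were gated on marker expression in these same cells, with markers chosen when earlier results of these data were known. The p-values therefore hold only given these gates. A gene that follows the gate markers would differ by the way the classes were made. Of the 9 genes that could be fitted, 5 differed between the classes by edgeR's quasi-likelihood test with the library as block and a Benjamini-Hochberg adjusted p under 0.01. Of 10703 genes tested, 6.52% were called higher in LMC-type and 8.48% higher in VSMC-type cells, 15.0% in all. Id4 was 10.7 times higher in VSMC-type cells (log2 ratio of LMC-type over VSMC-type -3.42 ± 0.21 SE, adjusted p = 2.03e-08), and in that direction in 4 of 4 libraries. Gdf10 was 9.94 times higher in VSMC-type cells (-3.31 ± 0.18, adjusted p = 7.65e-09, 4 of 4 libraries). Chrdl1 was 5.75 times higher (-2.52 ± 0.31, adjusted p = 2.22e-05) and Id2 2.61 times higher (-1.39 ± 0.18, adjusted p = 3.87e-05), again in 4 of 4 libraries. The Gdf10 difference was known when the genes were chosen and is no independent evidence.

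Bmp2 was 3.46 times higher in LMC-type cells (log2 ratio 1.79 ± 0.27, adjusted p = 1.63e-04) and in that direction in 3 of 4 libraries. The exception was tdT2, where Bmp2 rested on 10 and 9 UMIs. Id3 did not pass the threshold (-0.58 ± 0.19, adjusted p = 0.0395), and without the TNF-Tg library, which the choice of Id3 had used, its log2 ratio was -0.29 with an adjusted p of 0.294. Id1 (adjusted p = 0.829), Bmp4 (0.526) and Smad6 (0.171) did not pass either by the same edgeR test, and their standard errors of 0.27, 0.19 and 0.23 leave room for moderate differences. The number of genes called over the whole table, 1606, fell to 1064 without TNF-Tg and 959 without WT, while the 5 genes named here stayed called when any 1 library was left out. Without the library as block, Id2 (adjusted p = 0.0954) and Bmp2 (0.261) were no longer called.

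The rest of the pathway was taken from a list, of which 51 further genes are reported. In LMC-type cells, 36 of them had enough UMIs, and 3 were lower and 0 higher in TNF-Tg by 2-fold or more, beside 4.43% and 3.45% of all genes. The ligand Bmp7 was at 23.3 CPM in WT and 7.39 in TNF-Tg (log2 ratio -1.65, -2.09 to -1.25), and tdT1 and tdT2 were at 47.5 and 20.3 CPM. The activin subunit gene Inhbb was lower as well (-1.85, -2.69 to -1.12), as was the type II receptor gene Acvr2b on 11 TNF-Tg UMIs (-1.07, -2.13 to -0.14).

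In VSMC-type cells, 30 of the 51 genes had enough UMIs, and 4 (near the 12.0% of all genes) were lower and 0 (3.36% of all) higher by 2-fold or more. These 4 were Bmpr2, the type II BMP receptor (log2 ratio -1.25, -1.51 to -0.98), the Notch and BMP target Hes1 (-1.58, -1.87 to -1.29), the inhibitory Smad7 (-1.23, -1.76 to -0.73) and Tcf4, a bHLH partner of Id proteins (-1.16, -1.35 to -0.97). Bmpr2 was at 116 CPM in tdT1, 105 in tdT2, 101 in WT against 42.4 in TNF-Tg, so that TNF-Tg stood apart from 3 similar libraries. TNF-Tg lay below all 3 others for 40.4% of all genes in this class. The lower Bmpr2 was not particular to VSMC-type cells. Its log2 ratio was -0.73 (-0.86 to -0.60) in LMC-type and -1.31 (-1.59 to -1.04) in stromal between cells. Hes1 was at 280, 274, 101 and 34.0 CPM, with WT itself well under both tdTomato libraries. In LMC-type and stromal between cells the log2 ratios were -0.90 and -0.97 for Tcf4 and -0.33 and -1.23 for Hes1. Those of Smad7 were -0.21 and -0.26, with intervals that included 0. The median log2 ratio of the 30 genes was -0.59, beside -0.21 over all genes of the class, and of the 36 in LMC-type cells -0.27, beside -0.02. The list was chosen with earlier results of these data known, and each condition is 1 library. These medians are therefore given without a reading.

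Receptors for BMPs were measured in both classes. Bmpr2 was the highest of the receptor list in LMC-type cells of WT, at 138 CPM, followed by Bmpr1a at 75.3 CPM, and log2 ratios of TNF-Tg over WT among the 10 measured ran from -1.07 to 0.40. Of the SMAD list, Smurf2, a ubiquitin ligase that acts on SMADs, was highest at 110 CPM in WT LMC-type cells, next to Smad4 at 103 CPM, with log2 ratios of the 8 genes from -0.94 to 0.13. In VSMC-type cells the receptor ratios ran from -1.25 to 0.07 and the SMAD ratios from -1.23 to 0.42.

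By the edgeR class test, 35 of the 51 genes could be fitted, 7 were called higher in LMC-type and 5 higher in VSMC-type cells, beside 6.52% and 8.48% of all 10703 genes. Bmp7 was 46.1 times higher in LMC-type cells (log2 ratio 5.53 ± 0.40). Its VSMC-type sums held 1 UMI in WT and 0 in TNF-Tg, so the direction is clearer than the size of this fold. Smad1, Smurf1, Smurf2, Fstl1, Twsg1 and Twist1 were also higher in LMC-type cells, with log2 ratios from 0.70 to 1.98. Fstl3 was 5.52 times higher in VSMC-type cells (-2.46 ± 0.21), and Acvr2a, Nbl1, Bmper and Twist2 were higher there too, with log2 ratios from -0.66 to -2.19. Among the secreted antagonists, then, Chrdl1, Nbl1, Bmper and Fstl3 were higher in VSMC-type cells and Fstl1 and Twsg1 in LMC-type cells. Among ligands, Bmp2 and Bmp7 were higher in LMC-type cells and Gdf10 in VSMC-type cells.

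Outside the stroma, Gdf10 and Chrdl1 were at 0 to 3.92 CPM in the WT and TNF-Tg classes of at least 50 cells, while Bmp2 was present in resident macrophages, and the Id genes differed by cell type. Id3 was the stromal Id gene. In WT its level was 655 CPM in LMC-type and 803 CPM in VSMC-type cells but 0 to 13.5 CPM in the leukocyte classes of at least 50 cells. Id2 followed another order, with WT levels of 970 CPM in cDC1 dendritic cells, 932 in mast cells, 750 in Ear2 phagocytes and 591 in T cells, then 236 in inflammatory monocytes, 220 in Cd209a dendritic cells and 191 in VSMC-type cells, and 12.2 in resident macrophages. The interval of mast cells overlapped those of cDC1 cells and Ear2 phagocytes, and that of Cd209a dendritic cells overlapped those of inflammatory monocytes and VSMC-type cells. Id4 was at or below 0.233 CPM in all WT and TNF-Tg leukocyte classes of that size. Id1 was highest in basophils of TNF-Tg, at 652 CPM in 62 cells, and WT had 12 basophils, too few to compare.

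**Figure D4:**
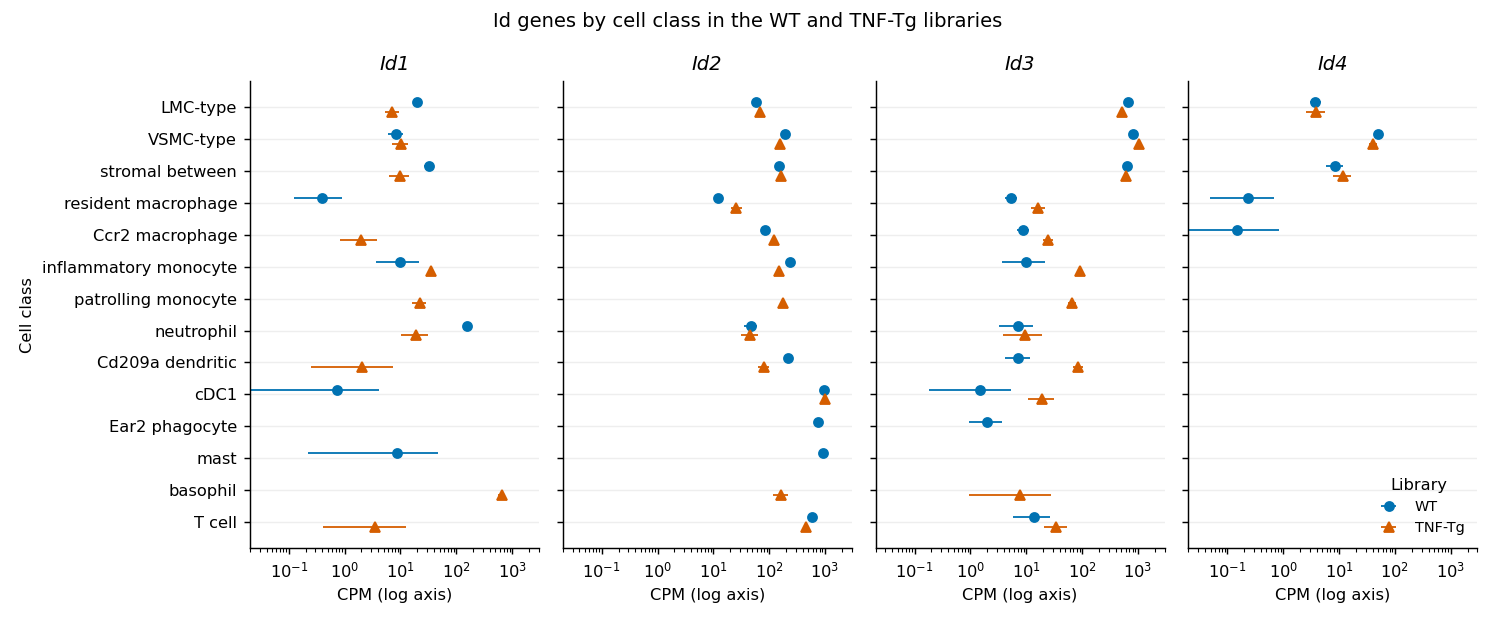
Level of Id1 to Id4 in CPM (log axis) by cell class in the WT and TNF-Tg libraries, for classes with at least 50 cells and at least 1 UMI of the gene, with exact Poisson 95% intervals. Id3 and Id4 are highest in the 3 stromal classes, and Id2 in cDC1, mast cells and Ear2 phagocytes. Id3 in inflammatory monocytes (6 UMIs in 56 WT cells) and Cd209a dendritic cells is higher in TNF-Tg than in WT.

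In the inflammatory monocyte, macrophage and Cd209a dendritic classes, Id3 was higher in TNF-Tg than in WT. In inflammatory monocytes it was at 9.88 CPM in WT (6 UMIs in 56 cells) and 92.0 CPM in TNF-Tg (550 UMIs in 537 cells), a log2 ratio of 3.22 (2.09 to 4.67). In Cd209a dendritic cells it was at 7.15 and 85.3 CPM (3.58, 2.79 to 4.45), and in Ccr2 macrophages at 8.86 and 24.3 CPM (1.46, 0.98 to 1.94). Resident macrophages were at 5.28 and 16.2 CPM (1.61, 1.06 to 2.16). The direction was the same, under the minimum of 50 UMIs, in cDC1 cells and T cells. The former were at 1.48 CPM in WT and 18.9 in TNF-Tg, on 2 and 15 UMIs. T cells were at 13.5 and 34.3 CPM, on 8 and 20 UMIs. Neutrophils were at 7.05 CPM in WT and 9.36 in TNF-Tg, on 9 and 7 UMIs, and free RNA was not measured. In TNF-Tg, inflammatory monocytes held 1768 Id3 UMIs per 1000 UMIs of the stromal marker list, where LMC-type and VSMC-type cells held 16.4 and 31.2. In WT the same values were 122, 15.5 and 15.8, so on this scale LMC-type cells were not lower in TNF-Tg. The stromal list that sets the scale was itself lower in TNF-Tg. It was at 42281 CPM in WT and 31908 in TNF-Tg LMC-type cells, and at 50739 and 33881 CPM in VSMC-type cells. The scale therefore cannot separate a change of Id3 from a change of that list. The part of free RNA was not tested. Patrolling monocytes of TNF-Tg were at 66.1 CPM, and WT had 8 of these cells.

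Other Id genes moved within leukocytes too. Id1 in inflammatory monocytes was at 9.88 CPM in WT and 35.3 in TNF-Tg (log2 ratio 1.84, 0.69 to 3.30). In neutrophils Id1 was at 157 CPM in WT (201 UMIs in 342 cells) and 18.7 in TNF-Tg (-3.07, -3.97 to -2.29), seen in 20.2% and 6.28% of cells. Id2 was lower in Cd209a dendritic cells (220 against 79.2 CPM, -1.47, -1.84 to -1.13) and higher in resident macrophages (12.2 against 25.7 CPM, 1.07, 0.67 to 1.47). By less than 2-fold, it was lower in inflammatory monocytes (-0.64, -0.90 to -0.38) and T cells (-0.35, -0.59 to -0.12). Ccr2 macrophages had a higher level of Id2 in TNF-Tg (0.56, 0.39 to 0.74). Id2 was alike within counting error in cDC1 cells, at 970 and 995 CPM (0.04, -0.09 to 0.17). Bmp2 in resident macrophages was at 15.1 and 29.5 CPM (0.96, 0.59 to 1.33). In Ccr2 macrophages it went the other way, at 5.02 CPM in WT and 1.45 in TNF-Tg, on 34 and 6 UMIs. For comparison, the share of all genes tested that was higher in TNF-Tg by 2-fold or more was 5.41% in inflammatory monocytes, 5.01% in Ccr2 macrophages, 4.64% in resident macrophages and 4.52% in Cd209a dendritic cells. The share that was lower was 6.75% in neutrophils and 8.18% in Cd209a dendritic cells. Endothelial cells were too few for these comparisons, with 35 in tdT1, where Bmp4 was at 259 CPM and Id3 at 525 CPM.

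Genes whose levels followed those of 3 of the genes were looked for over 31 sums of a class in a library, by Pearson's r of log2(CPM + 1) among 12774 genes. Most like Id3 were Setbp1 (r = 0.94), Epb41l3, Arhgap29, Btd and Ptges (0.92 each). Most like Gdf10 were Podn and Armh4 (0.99 each), Bgn, Gabra3 and Ism1 (0.98 each), of which Bgn is a gate marker of VSMC-type cells. Most like Bmp4 were Rnf165 and Plekhf1 (0.95 each), Abca5, Apbb2 and Abi3bp (0.94 each). The sums of 1 library share its depth and sort, and stromal and leukocyte sums lie far apart, so these values describe where genes are expressed.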

How the data were processed

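Single-cell libraries of 4 vessel pools were prepared on the 10x Genomics platform. The authors deposited filtered matrices of raw UMI counts per gene and cell, made with Cell Ranger (versions 3.1 and 3.1.0 in the submitters' processing notes; the file headers give 3.1.0 for tdT1 and 6.0.1 for the others) on build mm10, which is GRCm38. The tdT1 matrix lists 31053 genes and the others 32287. Median UMIs per cell were 6393.5 in tdT1, 4932.5 in tdT2, 12660 in WT and, for TNF-Tg, 10605.

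All barcodes were kept, and predicted doublets stayed in (Scrublet in scanpy 1.11.5; leaving them out was an alternative). Cells were gated by summed markers per 10000 UMIs: stromal cells at 80 or more with LMC or VSMC markers ahead by 1 on the log2 scale, and leukocytes at 10 or more. These thresholds were set after the marker sums were seen. The 10 genes, the pathway list and the markers were chosen with earlier results of these data known. For the pathway list, 1 gene is not reported here and was left out of the counts. UMIs were summed per class and library and given as CPM with exact 95% intervals. TNF-Tg over WT was not tested, and needed 50 cells per library and 50 UMIs over both. LMC-type and VSMC-type sums of the 4 libraries were compared with edgeR 4.0.16 (R 4.3.3; TMM, filterByExpr, library as block, Benjamini-Hochberg over all genes, threshold 0.01), and since each library is 1 pool, p-values measure the spread between 4 pools. On simulated sums of 10703 genes this comparison found 83 of 100 genes changed 2-fold and 100 of 100 changed 4-fold. The simulated libraries had the same mean level of each gene apart from depth, unlike the real ones. Genes of low mean level were not among those changed, so the rates do not cover them. Named genes were all 10 members, other pathway genes past 2-fold or called in the class test, the highest receptors and SMADs, and the 5 genes most like Id3, Gdf10 and Bmp4. Alternatives were Seurat 5.3.0 clusters built without the pathway genes, DESeq2 1.42.0, other scalings and filters, thinning to 3000 UMIs and leaving out each library.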

Additional observations from a re-analysis of the deposited data

Results flagged for a closer look

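For Id3, Id2 and Chrdl1 the TNF-Tg over WT difference had opposite signs in LMC-type and VSMC-type cells, with both counting intervals on their own side of 0. The log2 ratios were -0.32 and 0.40 for Id3, 0.28 and -0.27 for Id2, and 1.02 and -0.93 for Chrdl1, in LMC-type and VSMC-type cells respectively. The difference between the classes was not tested, as each condition is 1 library. Id3 was chosen by this opposite movement, so its flag is no separate result. Opposite directions of any size were seen in 21.0% of 8894 genes. The share of all genes with both intervals on their own side of 0 was not counted. Against the median of all genes of the class, -0.02 in LMC-type and -0.21 in VSMC-type cells, the VSMC-type value of Id2 is close to no difference.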

How the results depend on the processing

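The log2 ratio of Id3 in LMC-type cells stayed within its counting interval in each alternative run, and in VSMC-type cells it was 0.61 with DESeq2 size factors, 0.59 with TMM factors, 0.27 in Seurat clusters and 0.50 with cells thinned to 3000 UMIs. With thinning, 1 gene in place of 2 was lower by 2-fold or more in VSMC-type cells, as Bmp4 was at -0.75. With the stricter marker margin 3 genes were, as Chrdl1 reached -1.18. In LMC-type cells 4 genes in place of 5 were past 2-fold in Seurat clusters, as a mean over cells and with the stricter margin, where Chrdl1 was at 0.93, 0.92 and 0.83, and Id1 was -2.24 with that margin in place of -1.50. Over all alternatives, 64 of 72 member ratios in LMC-type and 46 of 64 in VSMC-type cells stayed within their intervals. Some runs could hardly differ. Leaving out doublets removed 0 VSMC-type cells in WT and TNF-Tg, and 4 and 0 LMC-type cells. Leaving out cells over 10% mitochondrial UMIs or under 500 genes removed 14 and 4 LMC-type cells. In the class test, Id1 turned to -0.0832 with DESeq2 and Bmp4 to 0.11 in Seurat clusters. With each library left out in turn, Id1 ran from -0.48 to 0.42 and Bmp4 from -0.54 to 0.0844, 959 to 1571 genes were called, and 5 members were called each time. Without the library as replicate block, 3 members and 342 genes were called in place of 5 and 1606. Without a filter on low counts, Id3 passed the threshold (adjusted p = 0.00610). The smallest library, tdT2, limits what can be said of genes below about 20 CPM.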
